A study of Mus musculus with 107 samples.

Results

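The data compared the RNA of neural progenitor cell (NPC) grafts in the spinal cord of mice with a double forceps crush (dSCI) with that of grafts in a single crush (SCI). The members were chosen by sample title, 5 libraries of each group, and together they are 10 of the 107 samples of the series. Every graft came from 1 female mouse embryonic stem cell line of the C57BL/6 strain that carries RiboTag, a haemagglutinin (HA) tag on the ribosomal protein Rpl22. Ribosomes of grafted cells can so be pulled from whole tissue with an antibody and their RNA sequenced. The hosts were wild type C57BL/6 mice of both sexes, young adults without immunosuppression. In both groups the cells were injected in a hydrogel at 2 d after a crush at spinal level T10 and recovered at 14 d. The sources differ on whether the 14 d were counted from the crush or from the graft. In the study's description each group had 5 mice, and dSCI differed by a larger core of non-neural tissue and less preserved neural tissue beside the graft. The comparison asks how the expression of the same cells differs with that environment.

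NPC of this kind can give rise to astrocytes, which support neurons and wall off damaged tissue, and to oligodendrocyte progenitor cells, which renew the myelin-forming cells. The core of a spinal cord lesion holds fibroblasts that lay down collagen, blood vessels, Schwann cells that enter from the nerve roots, and blood-derived macrophages. RNA of any of these cells that stays on the antibody beads is counted with the RNA of the graft. In bulk samples fewer cells of a type and less RNA per cell cannot be told apart. Host and graft shared a strain, so that apart from the tag no strain difference in sequence separates their RNA in the gene-level counts used here. The paper reports tag reads in early grafts in SCI at a frequency not statistically different from that before grafting. It reports no tag reads, and little RNA recovered, from crushed cord without a graft. The paper shows these checks for SCI and not for dSCI.

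Library totals ranged from 40506790 to 77335841 counts in SCI and from 44385710 to 90830404 counts in dSCI, a difference that did not pass an exact two-sided permutation test (p = 0.333, 5 against 5 libraries). The pair of libraries numbered 5 stood apart. The gene with Entrez identifier 100861531, for which the tables used here give no symbol, took 35.0% of the counts of dSCI replicate 5 and 25.0% of those of SCI replicate 5, against 4.08% to 5.67% in the other dSCI libraries and 4.91% to 12.1% in the other SCI libraries. Lars2, a mitochondrial leucyl-tRNA synthetase, took 2.56% and 2.54% of the counts of the same pair and at most 0.716% elsewhere. Levels are therefore given as counts per 1000000 (CPM) after scaling by the trimmed mean of M values (TMM), which sets most genes equal between libraries. The counts over all genes are given with and without these libraries, and so are those of the gene lists where they moved. Counts of the Y-linked genes Ddx3y and Uty were 0 in all 10 libraries, and Eif2s3y and Kdm5d had 2 counts each in all, so Y-linked transcripts gave no measure of host RNA. Rpl22, the tagged ribosomal gene, was at 50.1 to 121 CPM, with a log2 fold change (dSCI over SCI) of -0.07 ± 0.26 (standard error, SE).

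Of 15790 genes tested, 289 passed an adjusted p under 0.01 in edgeR's quasi-likelihood test, which is 1.83% of them. Of all tested, 204 (1.29%) were higher and 85 (0.538%) lower in dSCI. Without dSCI replicate 5 the test called 480 genes (2.98%), of which 348 (2.16%) were higher and 132 (0.818%) lower. Of the 289, 265 were called again in the same direction. Without both replicates 5 it called 1155 genes (7.27%), 835 higher (5.26%) and 320 lower (2.02%). Of the 289, 286 were among them. The threshold was sensitive to single libraries, since no gene passed 0.01 without dSCI replicate 2 or without SCI replicate 1, 2 or 3. In these fits 3311, 3241, 3051 and 2996 genes had an unadjusted p under 0.05. All 289 genes kept their sign and an adjusted p under 0.05 in each of the 10 fits that left out 1 library. DESeq2 called 1276 genes (8.08%), 818 of them higher (5.18%) and 458 lower (2.9%), with 288 of the 289 among them. Of the genes called higher, 188 had all 5 dSCI libraries above all 5 SCI libraries, and of those called lower 77 had all 5 below, against 4.29% and 2.84% of all genes tested. The log2 fold change was above 0 for 52.5% of all genes tested.

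**Figure D1:**
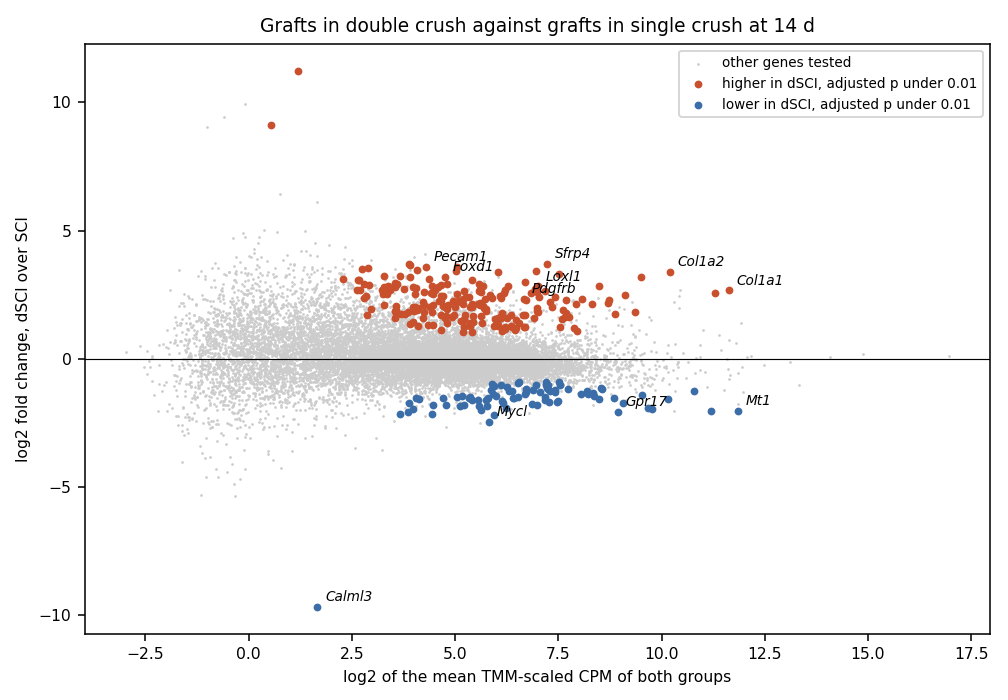
Each point is 1 of the 15790 genes tested, with the log2 of its mean TMM-scaled CPM over both groups on the x axis and its log2 fold change, dSCI over SCI, on the y axis. Red points are the 204 genes higher and blue points the 85 genes lower in dSCI at an adjusted p under 0.01.

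Genes of fibrotic matrix, the collagens and collagen-binding proteins of scar tissue, were higher in dSCI. All 27 listed genes were tested, 17 rose and none fell (16 without dSCI replicate 5, 21 without both replicates 5). Their median log2 fold change was 1.98, where the median over all genes tested was 0.035. Loxl1, a lysyl oxidase family enzyme that crosslinks elastin and collagen (chromosome 9, 58287723 to 58313212, GRCm38), was at 27.7, 22.5, 23.9, 30.0 and 56.5 CPM in SCI replicates 1 to 5. It was at 456, 140, 165, 225 and 146 CPM in dSCI replicates 1 to 5. Every dSCI library lay above every SCI library, with a log2 fold change of 2.82 ± 0.37 (SE, adjusted p = 0.00339) in all libraries and 2.94 ± 0.37 (adjusted p = 0.00198) without dSCI replicate 5. Col5a1, a chain of the collagen that starts fibril assembly, was at 63.3, 38.8, 56.2, 55.7 and 110 CPM in SCI and at 409, 248, 214, 209 and 224 CPM in dSCI (log2 fold change 2.01 ± 0.28, adjusted p = 0.00361). Its partner chain Col5a2 (2.42 ± 0.34) and the fibril-binding proteoglycan decorin, Dcn (2.50 ± 0.40), rose as well.

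Col1a1 and Col3a1, named here after their values were seen, and Col1a2 encode chains of the fibrillar collagens of scar, and all of them rose. Col1a1 was at 645, 397, 500, 692 and 2076 CPM in SCI and at 10070, 4098, 4266, 4527 and 4321 CPM in dSCI, and rose by a log2 fold change of 2.66 ± 0.46 (adjusted p = 0.00602). SCI replicate 5 was the highest of its group and dSCI replicate 1 the highest of all, yet the groups did not overlap. Col1a2 (3.39 ± 0.65, adjusted p = 0.00915) and Col3a1 (2.57 ± 0.42, adjusted p = 0.00559) had the same order of groups. Postn, a matrix protein of healing tissue, also rose (1.98 ± 0.39, adjusted p = 0.00978), but dSCI replicate 4 at 89.5 CPM lay below SCI replicate 5 at 101 CPM, and without dSCI replicate 5 its adjusted p was 0.0123. Fbln2, another matrix protein, had a log2 fold change of 1.40 ± 0.35 and an adjusted p of 0.0259.

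**Figure D2:**
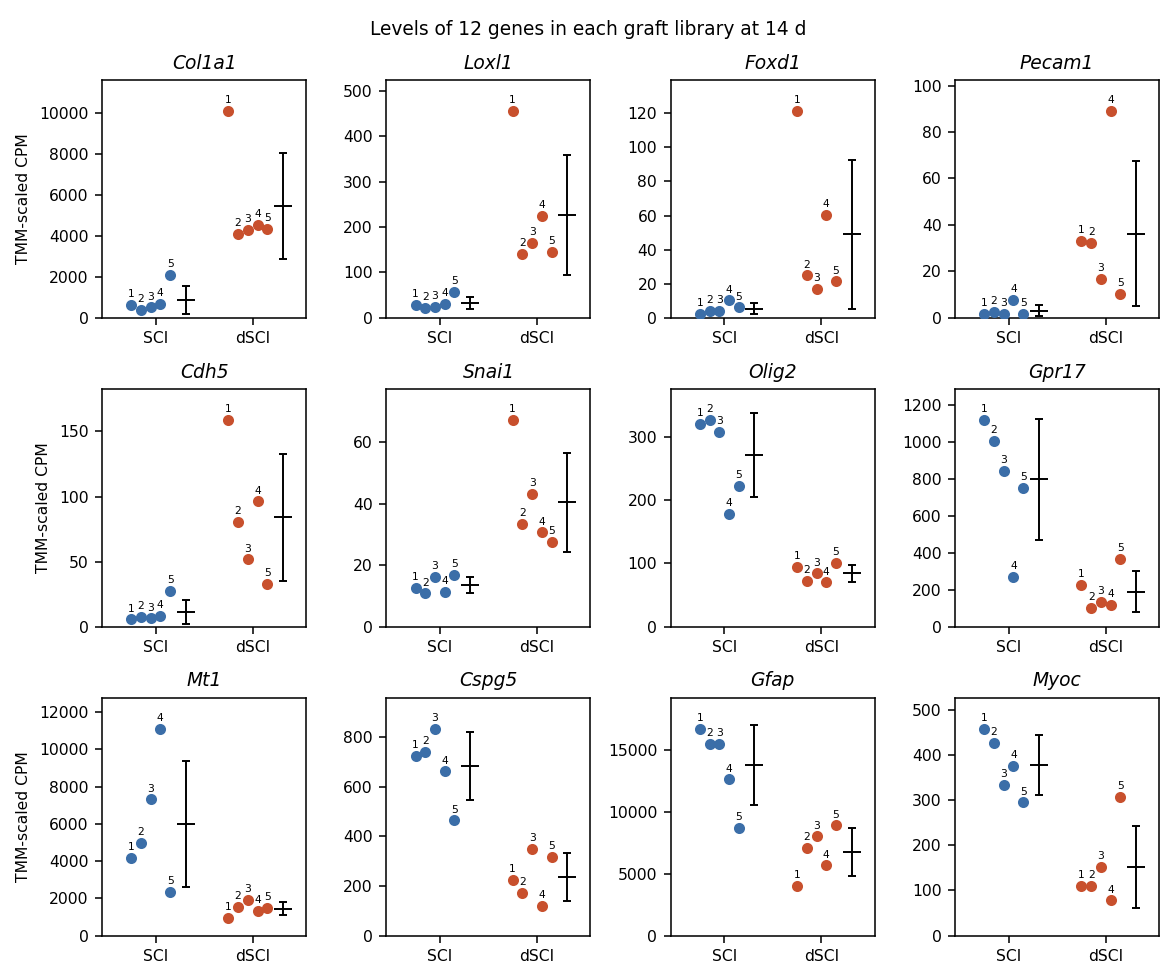
Each panel gives 1 gene in TMM-scaled CPM from 0 upward, with 1 point per library marked by its replicate number (SCI blue, dSCI red) and the mean with its SD beside each group. Col1a1, Loxl1, Foxd1, Pecam1, Cdh5 and Snai1 lie higher and Olig2, Mt1 and Cspg5 lower in all 5 dSCI libraries, while the groups overlap for Gpr17, Gfap and Myoc.

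Fibroblast identity genes, which mark the meningeal and perivascular fibroblasts of the cord, were 11, all tested; 4 rose (8 without dSCI replicate 5, 9 without both replicates 5) and none fell. Their median log2 fold change was 2.29. Foxd1, a forkhead transcription factor of stromal cells, was at 2.44, 4.19, 4.13, 10.1 and 6.12 CPM in SCI and at 121, 24.9, 17.02, 60.2 and 21.3 CPM in dSCI, a log2 fold change of 3.18 ± 0.56 (adjusted p = 0.00662). The groups did not overlap, and dSCI replicates 1 and 4 were the highest. Islr (2.13 ± 0.32), Dpt (2.02 ± 0.27), which encodes the matrix protein dermatopontin, and the transporter Slc47a1 (2.44 ± 0.44) rose too, with adjusted p values from 0.00339 to 0.00715. Among 11 pericyte and smooth muscle genes, 2 rose and none fell. These were Pdgfrb, the receptor for platelet-derived growth factor B on mural cells and fibroblasts (2.34 ± 0.36, adjusted p = 0.00506), and Tagln, a smooth muscle actin-binding protein (1.57 ± 0.29, adjusted p = 0.00813). Acta2, smooth muscle actin, had a value of 1.08 ± 0.27 and an adjusted p of 0.0233.

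Endothelial genes had the highest median of the lists with at least 7 genes tested, 2.92, and 6 of 15 rose (9 without dSCI replicate 5, 12 without both replicates 5). None was lower. Pecam1, the adhesion protein CD31 of blood vessel lining (chromosome 11, 106654213 to 106715281, GRCm38), was at 1.66, 2.58, 1.81, 7.53 and 1.77 CPM in SCI and at 33.0, 32.3, 16.6, 88.9 and 10.3 CPM in dSCI. The groups did not overlap and its log2 fold change was 3.56 ± 0.61 (adjusted p = 0.00594), or 3.81 ± 0.57 (adjusted p = 0.00241) without dSCI replicate 5. Cdh5, the cadherin of endothelial junctions, Ly6c1 and the transporter Slco1a4 rose by 2.92 ± 0.50, 3.65 ± 0.63 and 3.46 ± 0.55. The list stayed low in level: its 15 genes summed to 103 to 191 CPM in SCI and 241 to 1242 CPM in dSCI.

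The largest rises by the naming rule, beyond the genes above, were of secreted and matrix proteins. Sfrp4, a secreted inhibitor of Wnt signalling (chromosome 13, 19623175 to 19632825, GRCm38), was at 8.75, 18.2, 17.3, 22.6 and 41.5 CPM in SCI and at 707, 197, 109, 315 and 72.9 CPM in dSCI, with a log2 fold change of 3.70 ± 0.59 (adjusted p = 0.00528). In dSCI replicate 1 was highest and replicate 5 lowest, and still above all SCI libraries. The complement component C6 (3.69 ± 0.67), the carboxypeptidase Cpz (3.57 ± 0.68) and Srpx (3.49 ± 0.59) rose as well. The insulin-like growth factor binding protein Igfbp6 (3.43 ± 0.58), the glypican Gpc3 (3.41 ± 0.56) and the collagen-degrading protease cathepsin K, Ctsk (3.37 ± 0.50), completed this group. These 6 genes had adjusted p values from 0.00448 to 0.00858.

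Of 18 regulators and products of epithelial to mesenchymal transition (EMT), the programme by which cells take on a migratory and matrix-making state, 2 rose and none fell (4 without dSCI replicate 5, 7 without both). Snai1, a transcription factor that drives EMT, was at 12.6, 10.8, 16.1, 11.4 and 16.7 CPM in SCI and at 67.1, 33.4, 43.1, 30.6 and 27.6 CPM in dSCI, without overlap (1.58 ± 0.27, adjusted p = 0.00594). Anpep, an aminopeptidase that the study used as an EMT gene, rose by 1.88 ± 0.37 (adjusted p = 0.00953), with dSCI replicate 5 at 110 CPM just below SCI replicate 5 at 115 CPM. Its protein is CD13, which the study also stained as a marker of macrophages and fibrotic scar in lesion cores. Snai2, a relative of Snai1, had a log2 fold change of 0.79 ± 0.38 (adjusted p = 0.23), and Timp1, an inhibitor of matrix proteases, of -0.44 ± 0.34 (adjusted p = 0.482). In the EMT panel of the study, 189 of 196 genes were tested, and 35 rose and none fell. Without dSCI replicate 5 the count was 39 higher and 1 lower, and without both replicates 5 it was 58 higher and 4 lower.

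Guidance and trophic genes included 4 that rose among 19 listed and none that fell (4 without dSCI replicate 5, 7 without both replicates 5). Slit2, a guidance protein that repels axons, was at 6.81, 3.78, 6.26, 3.80 and 10.4 CPM in SCI and at 64.1, 30.5, 16.6, 24.6 and 46.1 CPM in dSCI (2.55 ± 0.40, adjusted p = 0.00509). The others were laminin chains, proteins of the basement membrane on which axons can grow: Lama4 (2.05 ± 0.36), Lamb1 (1.68 ± 0.30) and Lamc1 (1.06 ± 0.21). Without dSCI replicate 5 Lamc1 had an adjusted p of 0.0106, so the 4 called there were not all the same genes. Il33, an alarm cytokine stored in nuclei, was the 1 gene called among 24 chemokines and cytokines (3 without dSCI replicate 5, 4 without both, all higher), at 30.9 to 73.1 CPM in SCI and 97.1 to 159 CPM in dSCI (1.51 ± 0.24, adjusted p = 0.00528). Egln3, an oxygen-sensing hydroxylase, was the 1 gene called among 15 of hypoxia and glycolysis (1.33 ± 0.26, adjusted p = 0.00977).

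Oligodendrocyte progenitor genes were lower in dSCI. Of 16 listed, all tested, 5 fell and none rose, and 9 fell in either reduced set. Without both replicates 5, 1 gene of the list was higher, Matn4, a matrilin of the matrix that is named after its values were seen (log2 fold change 3.10, adjusted p = 0.000455). In all libraries Matn4 had a value of 2.10 ± 0.56 (adjusted p = 0.0344), with SCI replicate 5 above dSCI replicates 3 and 5. Their median log2 fold change was -1.07 (-1.29 without dSCI replicate 5). Olig2, a transcription factor of the oligodendrocyte lineage (chromosome 16, 91225550 to 91228677, GRCm38), was at 320, 327, 308, 179 and 223 CPM in SCI and at 94.0, 72.5, 84.1, 70.0 and 100.4 CPM in dSCI. Every dSCI library lay below every SCI library (-1.69 ± 0.21, adjusted p = 0.00339), and without dSCI replicate 5 the value was -1.76 (adjusted p = 0.00198). Olig1, its relative, was at 1469, 1653, 1529, 845 and 966 CPM in SCI and at 477, 174, 225, 331 and 496 CPM in dSCI (-1.92 ± 0.31, adjusted p = 0.00551). Gpr17, a receptor of cells about to form myelin, fell by -2.07 ± 0.41 (adjusted p = 0.00954), though SCI replicate 4 at 270 CPM lay below dSCI replicate 5 at 367 CPM. Bcas1 (-1.43 ± 0.27) and Lhfpl3 (-1.27 ± 0.25), the latter outside the naming rule, were the remaining members called.

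Not every gene of the lineage moved with them. Pdgfra, the growth factor receptor of oligodendrocyte progenitors and also of fibroblasts, was at 217, 211, 207, 117 and 260 CPM in SCI and at 278, 121, 123, 127 and 218 CPM in dSCI (-0.22 ± 0.27, adjusted p = 0.691). The myelin list had none of 16 genes called (1 higher without both replicates 5) and a median of 0.07. Mbp, myelin basic protein, was at 0.10 ± 0.32, a value whose sign changed when single libraries were left out. Hapln2 (1.32 ± 0.34, adjusted p = 0.0297) and Gpr37 (0.32 ± 0.23, adjusted p = 0.445), both of myelinating cells, had values above 0. In the oligodendroglia panel of the study 9 of 112 genes fell and 1 rose (15 and 2 without dSCI replicate 5, 20 and 7 without both replicates 5). Among lists that shared cells or functions with this lineage, the proteoglycan Cspg5 fell by -1.53 ± 0.28 (adjusted p = 0.00771), from 464 to 832 CPM in SCI to 120 to 348 CPM in dSCI. It was the 1 gene called among 13 brain proteoglycans and tenascins (4 without dSCI replicate 5, 6 without both, all lower).

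**Figure D3:**
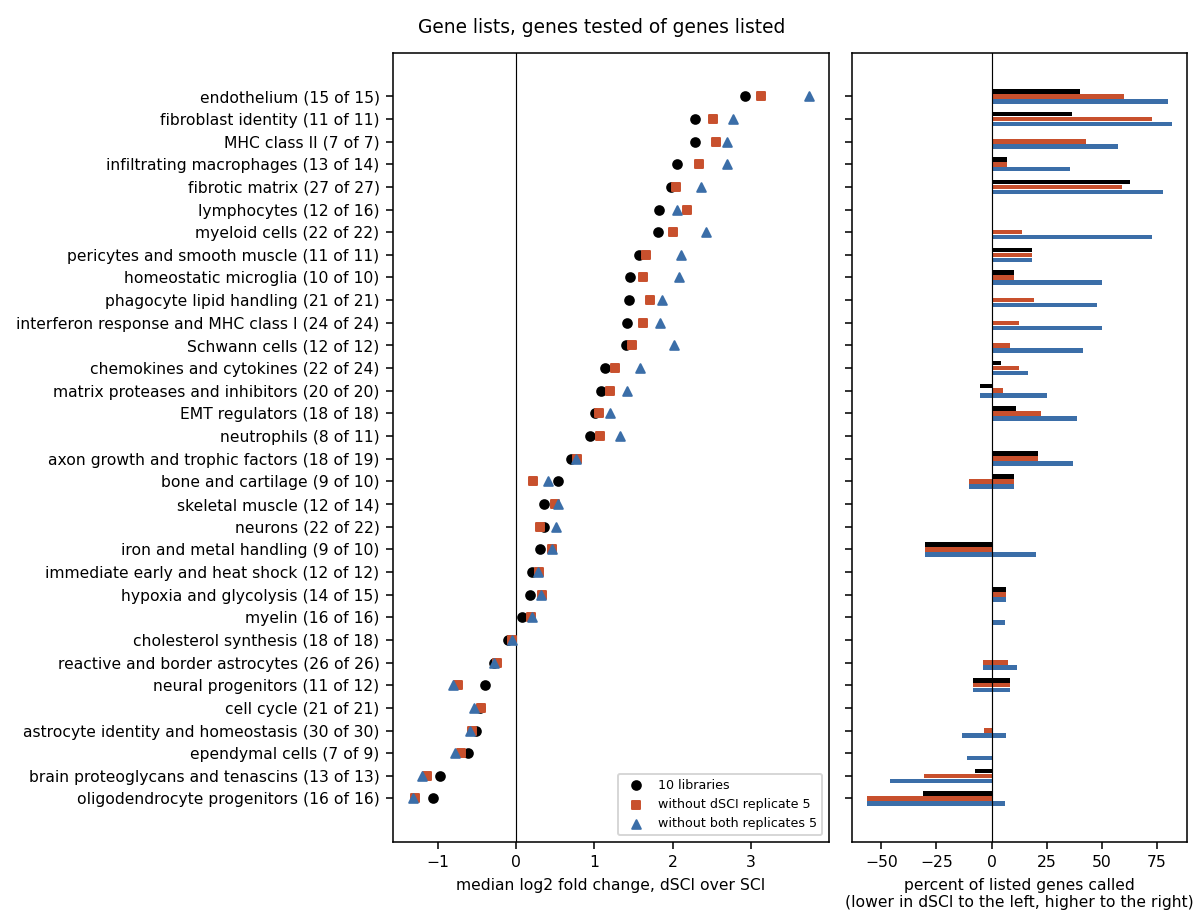
Left, the median log2 fold change of each gene list with at least 7 genes tested, for all 10 libraries (black), without dSCI replicate 5 (red) and without both replicates 5 (blue); right, the percent of listed genes called higher (to the right of 0) or lower (to the left) at an adjusted p under 0.01 in the same 3 fits and colours. The endothelial, fibroblast, infiltrating macrophage and MHC class II (antigen-presenting) lists have medians above 2 in every fit. The oligodendrocyte progenitor list has a median below -1 in every fit, and the myeloid list has genes called only where a replicate 5 was left out.

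The metallothioneins Mt1, Mt2 and Mt3, small proteins that bind zinc and copper, were lower in dSCI. They were the only genes called among 10 of iron and metal handling in all libraries (without both replicates 5, 3 were lower and 2 higher). Mt1 was at 4162, 4999, 7319, 11090 and 2341 CPM in SCI and at 960, 1548, 1932, 1306 and 1467 CPM in dSCI (-2.05 ± 0.37, adjusted p = 0.00745). Mt2 (-2.05 ± 0.39, adjusted p = 0.00867) and Mt3, the brain form (-1.97 ± 0.36, adjusted p = 0.00768), had the same library order in SCI, with replicate 4 highest and replicate 5 lowest, and no overlap between groups. The genes lie side by side on chromosome 8. Metal-response elements, the sites of the zinc-sensing factor MTF1, share the core TGCACNC or TGCGCNC, which was looked for on both strands of the 250 bases before the RefSeq start (build GRCm38.p6). The windows of Mt2 (chr8:94172368-94172617, plus strand) and Mt3 (chr8:94152357-94152606, plus strand) are printed 5′ to 3′ because these genes moved together, with matches in capitals.
Mt2: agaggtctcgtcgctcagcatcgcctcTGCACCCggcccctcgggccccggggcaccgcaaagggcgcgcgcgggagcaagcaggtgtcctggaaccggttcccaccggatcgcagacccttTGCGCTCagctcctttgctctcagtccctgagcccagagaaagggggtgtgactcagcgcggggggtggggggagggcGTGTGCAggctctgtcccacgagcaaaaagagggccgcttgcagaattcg
Mt3: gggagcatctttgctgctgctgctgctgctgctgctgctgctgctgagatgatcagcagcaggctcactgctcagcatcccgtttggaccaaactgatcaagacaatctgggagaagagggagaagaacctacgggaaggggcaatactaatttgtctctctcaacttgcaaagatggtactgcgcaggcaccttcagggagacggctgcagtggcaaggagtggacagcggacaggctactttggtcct
Mt2 held 3 matches, the last on the minus strand, Mt1 held 1 in the same window (not printed, since another annotated start falls within it), and Mt3 held 0. Of 32851 RefSeq promoter windows 21.4% held at least 1 match and 1.26% at least 3. A single match is therefore common, and a match describes letters, not a bound site.

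Other genes that fell by the naming rule were led by Mycl, a MYC family transcription factor, at 126, 133, 93.9, 49.4 and 75.4 CPM in SCI and at 20.3, 10.7, 7.35, 13.8 and 33.7 CPM in dSCI (-2.48 ± 0.39, adjusted p = 0.00525). Col20a1 (-2.22 ± 0.27), Cited1 (-2.18 ± 0.39), the calcium channel subunit Cacng4 (-2.14 ± 0.31), the glutamate transporter Slc1a1 (-2.005 ± 0.32), the lipogenic regulator Thrsp (-1.93 ± 0.34) and C530044C16Rik (-2.08 ± 0.39) followed. Their adjusted p values were from 0.00339 to 0.00858, with no overlap between groups in any of them. Calml3, a calmodulin-like protein of epithelia, was detected almost entirely in one group. It had 2033 counts over the SCI libraries, 1.147 to 15.3 CPM each, and 2 counts over the dSCI libraries, both in replicate 1. The ratio of pooled counts, dSCI over SCI, was 0.000794 (95% exact interval of the counts 9.61e-05 to 0.00287), which covers counting error only. AU021092 and Syne4, named after their values were seen, had the reverse pattern at a low level. AU021092 was at 0 in all SCI libraries and at 1.33 to 9.28 CPM in dSCI, and Syne4 was at 0 to 0.01475 CPM in SCI and 0.569 to 6.11 CPM in dSCI. Both were called higher (adjusted p = 0.00534 and 0.00709). Fabp7, a fatty acid binding protein of progenitors and radial glia, fell (-1.36 ± 0.27, adjusted p = 0.00977), and Zic1, a transcription factor of the dorsal neural tube and meninges, rose (1.76 ± 0.32, adjusted p = 0.00722). They were the 2 called of 12 neural progenitor genes. Most of the 20 matrix proteases and inhibitors had values above 0, 16 of them, with a median of 1.08. In all libraries 1 of them was called, Timp4, a protease inhibitor of brain tissue, which was lower (-1.30 ± 0.25, adjusted p = 0.00841). Without dSCI replicate 5, where Timp4 had an adjusted p of 0.0106, 1 was higher and none lower, and without both replicates 5, 5 were higher and 1 lower.

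Of 30 astrocyte identity genes none was called in all 10 libraries, 1 fell without dSCI replicate 5, and 4 fell and 2 rose without both replicates 5. The median log2 fold change was -0.51 and 6 of 30 values were above 0. Gfap, the intermediate filament of astrocytes, was at 16660, 15490, 15460, 12600 and 8682 CPM in SCI and at 4031, 7072, 7999, 5669 and 8896 CPM in dSCI. Replicate 5 of SCI lay below replicate 5 of dSCI and the other libraries did not overlap (-1.03 ± 0.30, adjusted p = 0.0451; -1.15, adjusted p = 0.0301, without dSCI replicate 5; adjusted p = 0.00576 without both). Aqp4, the water channel of astrocyte endfeet, was at 758 to 1093 CPM in SCI and 511 to 1054 CPM in dSCI (-0.23 ± 0.22, adjusted p = 0.591). Pla2g7 and S100b had values of -0.70 and -0.64 and Gjb6 of 0.39, with adjusted p values from 0.109 to 0.496. In the larger astrocyte panel of the study, 388 of 428 genes were tested, and 12 fell and 5 rose. The counts were 19 and 12 of 393 tested without dSCI replicate 5, and 35 and 28 of 392 without both replicates 5. Over all genes tested in all libraries, 0.538% fell and 1.29% rose. These shares were 0.818% and 2.16% without dSCI replicate 5, and 2.02% and 5.26% without both replicates 5.

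Among genes of border-forming and reactive astrocytes, the median log2 fold change was -0.28 and 8 of 26 values were above 0. The members named below all had values under 0, and those that rose are not named. None of the 26 was called in all libraries. Without dSCI replicate 5, 2 rose and 1 fell, and without both replicates 5, 3 rose and 1 fell. The gene that fell there was Myoc, myocilin of the glia limitans, which was at 458, 428, 335, 377 and 295 CPM in SCI and at 110, 110, 153, 78.3 and 307 CPM in dSCI. With dSCI replicate 5, which lay among the SCI libraries, its value was -1.32 ± 0.31 (adjusted p = 0.0216), and without it -1.74 ± 0.22 (adjusted p = 0.00198). Chil1, a chitinase-like protein, was at 1875, 2471, 2580, 2096 and 1113 CPM in SCI and at 191, 427, 1227, 226 and 379 CPM in dSCI (-2.05 ± 0.45, adjusted p = 0.0159), with dSCI replicate 3 above SCI replicate 5. Id3 (-0.62 ± 0.24), Vim (-0.55 ± 0.26), Clu (-0.57 ± 0.26), C4b (-0.29 ± 0.19) and Serpina3n (-0.43 ± 0.27) had adjusted p values from 0.126 to 0.403. Tgm1, a transglutaminase in the reactivity panel of the study, had all dSCI libraries, at 16.9 to 161 CPM, below all SCI libraries, at 183 to 295 CPM (-1.77 ± 0.46, adjusted p = 0.0294).

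Markers of myeloid cells had their highest summed levels in dSCI replicates 2, 3 and 4. All 22 myeloid genes were tested and none was called in all libraries, 3 rose without dSCI replicate 5 and 16 without both replicates 5. They had median log2 fold changes of 1.81, 2.01 and 2.43. Their summed level was 1220, 1032, 1817, 1774 and 4731 CPM in SCI and 3342, 8718, 5761, 19160 and 2899 CPM in dSCI. The order of the dSCI libraries was therefore not that of fibrotic matrix, which summed to 37350 CPM in replicate 1 and to 16100 to 17100 CPM in replicates 2 to 5. Ptprc, the pan-leukocyte antigen CD45, had a value of 1.13 ± 0.50 (adjusted p = 0.188) and Itgam, a macrophage integrin, of 1.42 ± 0.43 (adjusted p = 0.055). Mrc1, the mannose receptor of perivascular macrophages, was the 1 called of 14 infiltrating macrophage genes (2.00 ± 0.39, adjusted p = 0.00954). Without dSCI replicate 5 its adjusted p was 0.01, not under the threshold, and the 1 called was Ms4a7 (adjusted p = 0.00684). Olfml3 was the 1 called of 10 microglial genes (1.25 ± 0.25, adjusted p = 0.00978). Without both replicates 5, 5 genes of each list were called, all higher. In all libraries the median log2 fold change was 2.05 for the infiltrating macrophage list and 1.45 for the microglial list.

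Of the reactivity panel of the study, used here in part, 98 of 109 genes were tested and 7 rose, 16 without dSCI replicate 5 and 54 without both replicates 5, with none lower. Cd22, a lectin of B cells and microglia, was at 5.94 to 24.9 CPM in SCI and 22.01 to 66.8 CPM in dSCI (1.87 ± 0.44, adjusted p = 0.0206). Ms4a7 of macrophages was at 4.32 to 11.9 and 12.9 to 113 CPM (2.36 ± 0.54, adjusted p = 0.0178). Clec4d and Spi1 had adjusted p values of 0.0623 and 0.0543. The antigen-presenting genes H2-Aa and H2-Ab1 had values of 2.38 ± 0.58 and 2.59 ± 0.63 (adjusted p = 0.023 and 0.0231). Both passed 0.01 without dSCI replicate 5, as 3 of 7 genes of the MHC class II list did. The median of that list was 2.28 in all libraries. Irf7, an interferon-induced factor, had no overlap between groups and an adjusted p of 0.0121 (0.00615 without dSCI replicate 5). Lymphocyte and neutrophil lists had none called of 16 and 11 genes, 12 and 8 of them tested, and summed to at most 85.4 CPM in any library.

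Of 12 Schwann cell genes none was called in all libraries, 1 rose without dSCI replicate 5 and 5 without both replicates 5, with a median log2 fold change of 1.40. Pmp22, a myelin protein of these cells, had a value of 0.73 ± 0.20 (adjusted p = 0.0365). The 12 Schwann cell genes summed to 320 to 581 CPM in SCI and 625 to 1317 CPM in dSCI. Neuronal genes had none of 22 called and a median of 0.35, with Snap25 at 0.40 ± 0.43. The cell cycle list had none of 21 called and a median of -0.46, with the replication enzyme Top2a at -1.03 ± 0.24 (adjusted p = 0.0213). The part of myeloid, endothelial, fibroblast and Schwann cell RNA in the rises above was not tested.

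**Figure D4:**
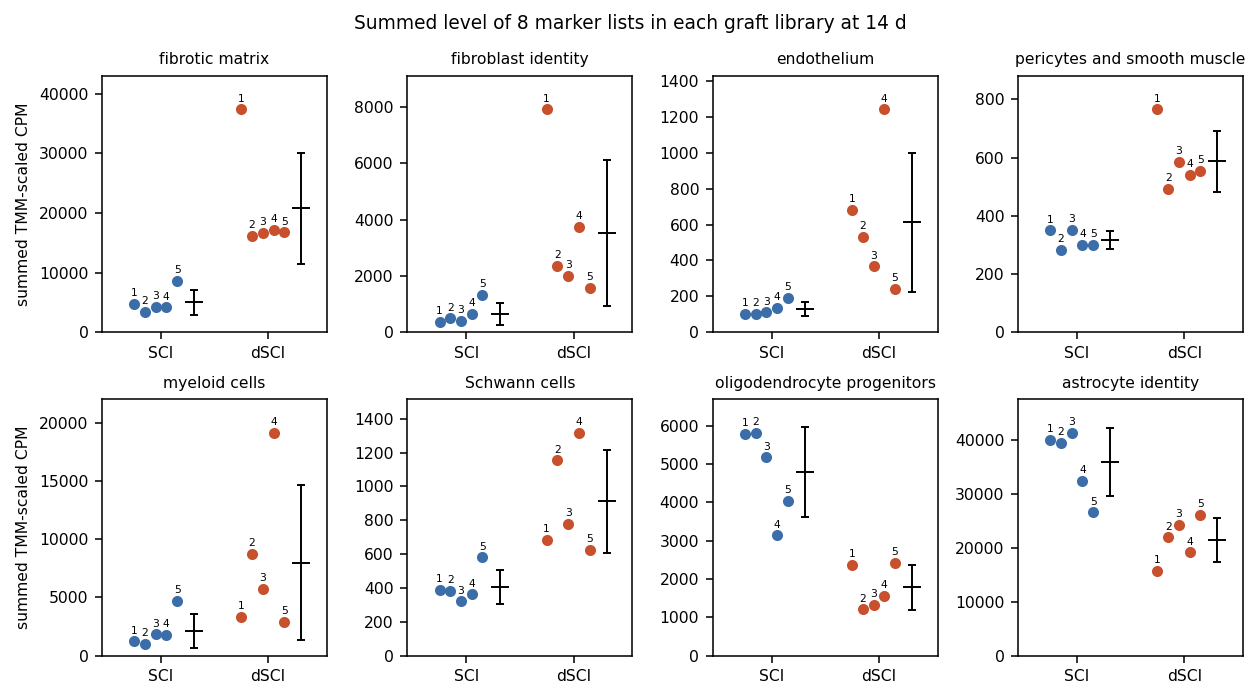
Summed TMM-scaled CPM of 8 marker lists, from 0 upward, with 1 point per library marked by its replicate number (SCI blue, dSCI red) and the mean with its SD beside each group. The groups do not overlap for fibrotic matrix, fibroblast, endothelial, pericyte, Schwann cell, oligodendrocyte progenitor and astrocyte identity lists, and dSCI replicate 1 is highest for fibrotic matrix but replicate 4 for myeloid genes.

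The same lists placed both groups among the other samples of the series, on the same scale and without a test. Fibrotic matrix summed to 5018 ± 2063 CPM (SD, n = 5) in SCI and 20780 CPM (16100 to 37350, n = 5) in dSCI. It summed to 5312 ± 1712 CPM (n = 5) in grafts in uninjured cord at 14 d, to 17660 ± 8302 CPM (n = 5) in grafts in SCI at 5 d, and to 3395 ± 59.1 CPM (n = 4) in the cultured NPC of passage 15. Grafts in dSCI were thus at the level of the 5 d grafts for these genes and grafts in SCI at that of uninjured cord. The column headers of the counts appear to name single reads for the 5 d libraries, unlike the others. The paper's methods describe paired-end reads, and the effect of such a difference was not tested. Fibroblast identity genes gave 644.5 ± 389.7 CPM in SCI, 3517 ± 2591 CPM in dSCI, 1227 ± 679.8 CPM in uninjured cord and 1028 ± 413 CPM at 5 d. For oligodendrocyte progenitor genes the values were 4796 ± 1170 CPM in SCI, 1779 ± 579.5 CPM in dSCI, 5050 ± 1665 CPM in uninjured cord and 1722 ± 596.5 CPM at 5 d. The border and reactive astrocyte list was at 21030 ± 4873 CPM in SCI and 11880 ± 3573 CPM in dSCI, above the 6416 ± 1227 CPM of uninjured cord and the 8973 ± 2159 CPM at 5 d, and at 15020 ± 753 CPM (n = 5) in host astrocytes of the crushed cord.

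**Figure D5:**
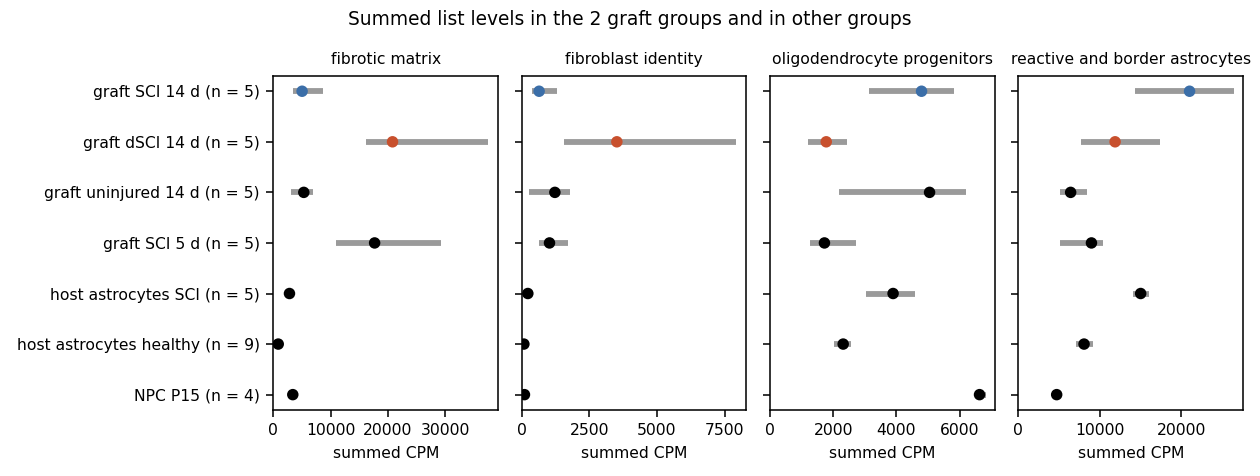
Mean (point) and range over libraries (grey bar) of the summed TMM-scaled CPM of 4 gene lists in the SCI (blue) and dSCI (red) grafts and in 5 other groups of the series (black), with the number of libraries beside each name. Grafts in dSCI share the level of the 5 d grafts for fibrotic matrix and oligodendrocyte progenitor genes and lie between grafts in SCI and in uninjured cord for border and reactive astrocyte genes.

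Calml3 averaged 6.29 ± 5.47 CPM (SD, n = 5) in SCI and at most 0.227 CPM in each of the other groups used. Mt1 averaged 5982 ± 3370 CPM in SCI, 1443 ± 355 CPM in dSCI, 907 ± 295 CPM in uninjured cord and 8659 ± 4663 CPM in host astrocytes of the crushed cord. Chil1 averaged 2027 ± 585 CPM in SCI, 489.9 ± 424 CPM in dSCI, 75.01 ± 46.3 CPM in uninjured cord and 33.6 ± 31.3 CPM in grafts at 5 d. These comparisons share the SCI libraries and are given as levels alone.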

How the data were processed

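RNA bound by the HA-tagged ribosomes of the grafts was sequenced as poly-A selected libraries. Per the labels and the study's methods, the authors used Trimmomatic for trimming, HISAT2 for alignment (build mm10) and featureCounts for gene-level counting. The deposited values are raw counts for 27179 Entrez gene identifiers in 1 file per library; symbols and positions came from RefSeq (GRCm38.p6). Groups and replicate numbers follow the sample titles. Genes were tested with edgeR 4.0.16 (R 4.3.3): the default low-count filter, TMM scaling, the quasi-likelihood F test without covariates and Benjamini-Hochberg adjustment at 0.01, over 10 libraries and again without dSCI replicate 5; the SE is the log2 fold change over the root of F. DESeq2 1.42.0 and limma 3.58.1 were alternatives. Library measures used exact permutation tests.

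The 35 gene lists, 6 panels of the study (read from a scanned supplement, the reactivity panel only in part) and the members were chosen with earlier results of these data known. Named genes were, per direction, the 12 largest changes among called genes of at least 5 CPM also called without dSCI replicate 5, the 4 of smallest p per list (or its first 2 where none was called), genes the study names, genes with 5% of a library's counts and the graft checks. No 2 libraries agreed within sampling noise. With both groups sequenced without a stated run or date, batch and group cannot be told apart. The test was checked on simulated counts. Some named genes are not reported here.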

Additional observations from a re-analysis of the deposited data

Results flagged for a closer look

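Of 104 groups of 5 libraries checked, 28 held a library whose gap to the nearest other exceeded 0.71 of the range of its group (Dixon's test). For independent, normally distributed values about 1 in 20 groups passes that limit. The values here were unlogged, and lists were checked along with their own genes, so the 28 cannot be set against that rate. SCI replicate 5 was the highest of its group for Lars2 (2.54% of counts), for the summed levels of fibrotic matrix (8596 CPM), fibroblast identity (1314 CPM), myeloid (4731 CPM) and Schwann cell genes (581.3 CPM), and for Col1a1 (2076 CPM), Col1a2 (609.4 CPM), Col3a1 (1558 CPM), Loxl1 (56.5 CPM), Islr (160.3 CPM), Cdh5 (27.5 CPM), Ctsk (21.97 CPM), Anpep (114.7 CPM), Cd22 (24.9 CPM) and Xist (145.7 CPM). Xist, the RNA of the inactive X chromosome, was at 12.6 to 44.4 CPM in the other SCI libraries and 25.4 to 147 CPM in dSCI (adjusted p = 0.481, edgeR).

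Replicate 1 of dSCI was the highest of its group for summed fibrotic matrix (37350 CPM), Col1a1 (10070 CPM), Col5a1 (408.5 CPM), Loxl1 (455.6 CPM), Pdgfrb (298.6 CPM) and Zic1 (217 CPM), and was the 1 dSCI library with Calml3 (0.0292 CPM). Replicate 5 of dSCI was the highest for the gene 100861531 (35.0% of counts) and Lars2 (2.56%). Replicates 4 were the highest of their groups for Pecam1, at 7.53 CPM in SCI and 88.9 CPM in dSCI, and dSCI replicate 4 was the lowest for Postn (89.5 CPM). Chil1 in dSCI replicate 3, at 1227 CPM, lay far above the 191 to 427 CPM of the other dSCI libraries.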

How the results depend on the processing

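The 289 calls (204 higher, 85 lower) were within 1.5 times in total under DESeq2 size factors, a stricter filter (at least 5 CPM in 5 libraries), removal of the most abundant gene, robust dispersions and 3 or 4 graft groups in 1 fit, though with 4 groups only 130 were higher. DESeq2 called 1276 (818 higher, 458 lower), no filter 440 (325 higher), limma-voom with quality weights 1539 (1012 and 527), a threshold of 0.05 1337 (848 and 489), and both replicates 5 left out, chosen after seeing the data, 1155 (835 and 320). Leaving out 1 library gave 0 to 1061 calls (0 to 712 higher, 0 to 349 lower), highest without SCI replicate 5; at an adjusted p under 0.05 the range was 464 to 2724. The 480 calls without dSCI replicate 5 were 1420 with DESeq2 (892 and 528) and 41 to 1155 (27 to 835 and 14 to 320) with a further library left out. The cause was not tested.

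Same-numbered libraries correlated at -0.038 to 0.152 in their deviations from the group means. These low values do not show that the pairs share only a number. Both replicates 5 had a high share of counts in Lars2, 2.54% in SCI and 2.56% in dSCI, against at most 0.716% in any other library. Whether same-numbered libraries were processed together was not tested. A replicate block called 0 genes (0 higher, 0 lower) in edgeR, with 4162 at an unadjusted p under 0.05 and 1264 at an adjusted p under 0.05; with both replicates 5 left out as well it called 988 (686 and 302). Only dSCI replicates 4 and 5 correlated best with their own number.

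Signs changed for genes that were not called. Mbp was at -0.16 under limma-voom and at -0.08 to 0.22 with 1 library left out. Rpl22 was at -0.21 to 0.13 with 1 library left out, and Lars2 at 0.03 under limma-voom and at -2.52 to 1.08 with 1 library left out. The gene 100861531 was at -0.49 with the block, -0.76 with the block and without both replicates 5, -0.86 without both and -1.52 to 0.76 with 1 library left out.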
